A study of Mus musculus with 6 samples.

Results

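The collagens are a family of secreted and transmembrane proteins built from 3 chains wound into a triple helix, and the discoidin domain receptors Ddr1 and Ddr2 are the tyrosine kinases that sense that helix. All features of the array were taken that the platform annotation assigns to a single collagen chain gene (a symbol of the form Col, number, a, number) or to Ddr1 or Ddr2. This gave 50 features for 46 genes, 47 of them for 44 collagen chains and 3 for the receptors, out of 23521 features with 1 symbol for 22180 genes. A feature is 1 transcript cluster, the set of probes summarised to 1 value. Col1a2, Col5a1, Col6a1 and Ddr1 have 2 features each.

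The samples came from R1, an embryonic stem cell line with an inner cell mass origin, male and of strain 129X1 x 129S1. Untreated cells and cells given ascorbic acid 2-glucose (AA2G), a vitamin C derivative that stays stable in medium, were compared after 3 days. The dose was 250 µg/ml (0.74 mM), and each group has 3 samples that the study describes as independent replicates, 1 array each. All cultures shared serum, the cytokine LIF and a gelatin coating, which is itself denatured collagen. The line is a single line, so the comparison holds for R1 and for this 1 dose and time. The p-values and SE of limma rest on the spread between these 3 samples a group, drawn toward the spread typical of all features tested. An SE can thus differ from what a feature's own SD would give.

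Vitamin C has a textbook tie to collagen. The prolyl and lysyl hydroxylases of the endoplasmic reticulum use ascorbate as a cofactor, and hydroxylated prolines hold the triple helix together at body temperature. Fibrillar collagens form the ropes of connective tissue, type IV forms the mesh of basement membranes, fibril-associated collagens decorate fibrils, and a few chains span the plasma membrane. Ddr2 binds fibrillar collagens, while Ddr1 also binds the basement membrane type. An early embryo makes mostly basement membrane, and interstitial fibrils are chiefly a product of mesenchymal cells.

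Of the 50 features, 1 rose with AA2G and 0 fell at an adjusted p under 0.05 in limma (Benjamini-Hochberg over all 23521 features), where 0.761% of all features passed in either direction, 0.608% as higher and 0.153% as lower. The one that rose was Ddr2. None of the 47 collagen features passed. At an unadjusted p under 0.05 limma gave 0 higher and 1 lower among the collagens, where 4.66% of all features were higher and 5.06% lower at that level. The median difference, AA2G minus untreated on the log2 scale, was 0.03 over the 47 collagen features and -0.01 over all features. Differences between -0.1 and 0.1 were seen in 36 of the 47 collagen features (76.6%) and in 59.3% of all features. The table-wide count of 179 fell whichever array was left out. It was 98, 101 or 64 without untreated replicate 1, 2 or 3, and 131, 89 or 88 without AA2G replicate 1, 2 or 3. Fewer arrays also give less power, and this was not separated from an effect of single arrays.

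**Figure D1:**
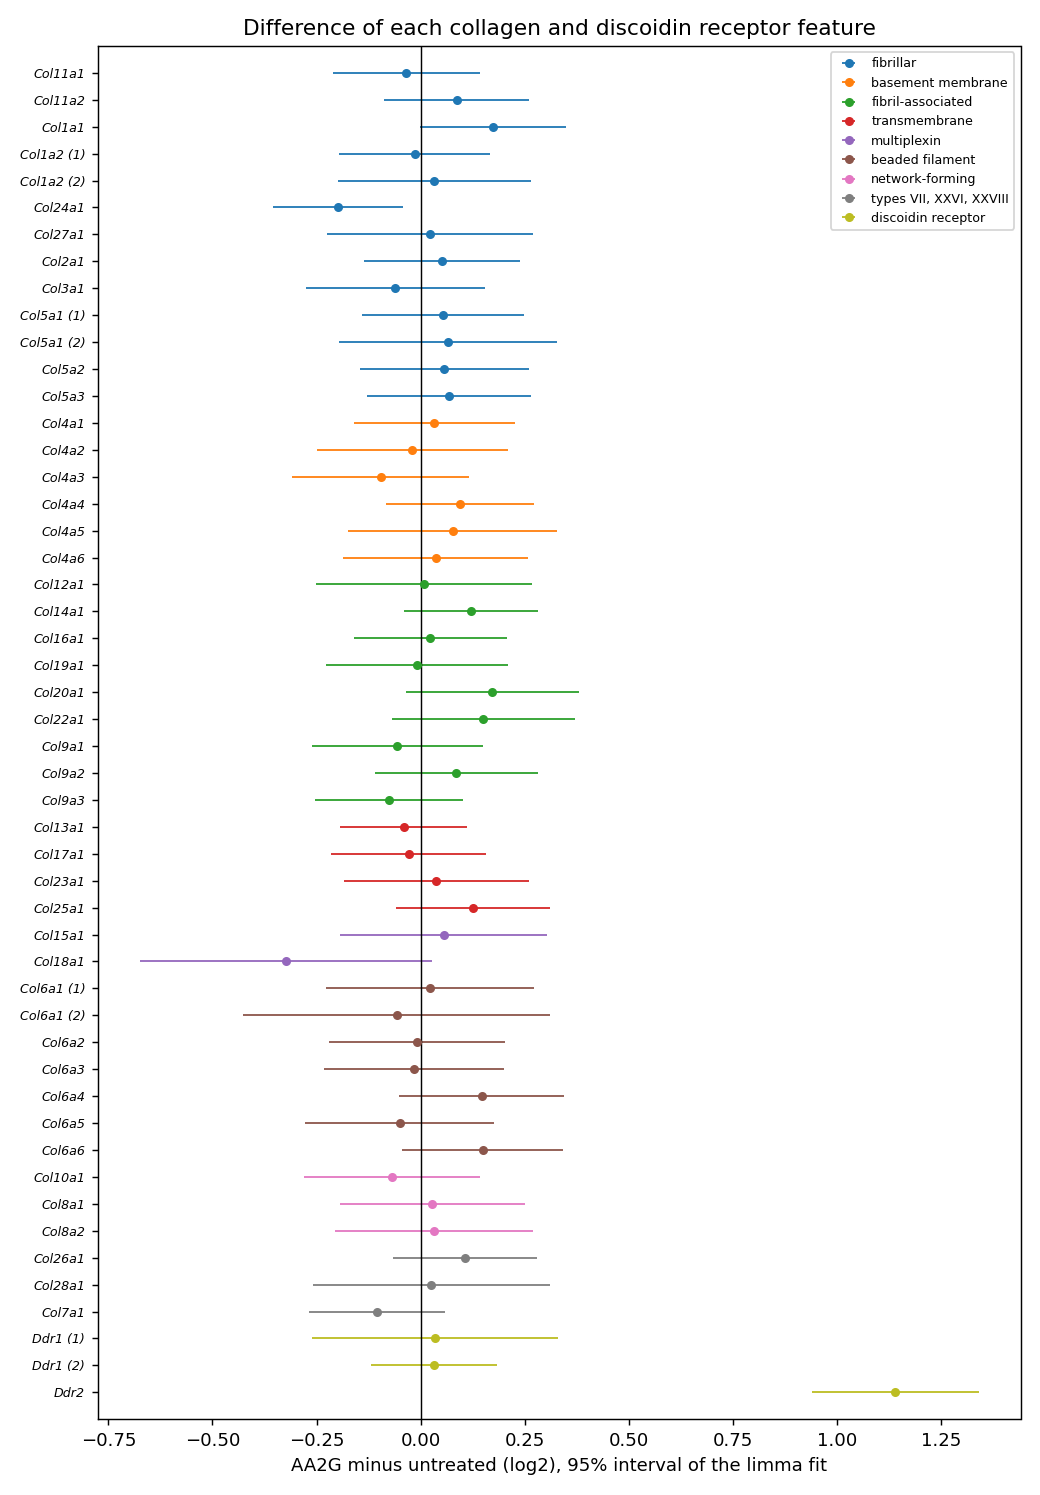
Difference between AA2G and untreated cells (log2, horizontal axis) for each of the 50 features, ordered by class, with points for the fitted difference and bars for its 95% interval. The bar of Ddr2 runs from 0.94 to 1.34, and the bars of the collagen chains all lie between -0.67 and 0.38.

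Ddr2 (Entrez Gene 18214), the receptor of fibrillar collagen, read 4.57, 4.54 and 4.41 in the untreated arrays and 5.65, 5.54 and 5.76 in the AA2G arrays (log2). The groups were far apart, with no overlap. In means it went from 4.51 ± 0.09 to 5.65 ± 0.11 (SD, n = 3 each), a rise of 1.14 ± 0.09 (SE) or 2.20-fold, with a limma adjusted p of 0.00107. Among the 143 features called higher, 41 had a larger rise. Its call held in 13 alternative fits, with adjusted p between 0.000229 and 0.0195 and rises between 1.08 and 1.24. It also passed in the fit of brighter features only (mean over all arrays above 4.99), but it entered that fit only through its AA2G arrays, so that fit says nothing of the call. The untreated level lies below the same 4.99, the 40th percentile of feature means. The table has no detection calls, so this level cannot be told from background and the fold is uncertain. In bulk RNA, a larger share of cells with Ddr2 and more Ddr2 RNA per cell cannot be told apart.

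Ddr1 (12305), the other receptor of the family and typical of epithelial cells, has a feature that read 6.76, 6.73 and 6.78 in untreated cells and 6.81, 6.77 and 6.78 with AA2G. Its second feature read 4.64, 5.04 and 5.13 against 4.93, 5.06 and 4.93. The groups overlapped at both. The differences were 0.03 ± 0.07 (95% interval -0.12 to 0.18) and 0.03 ± 0.13 (-0.26 to 0.33), with limma adjusted p of 0.930 and 0.964. The difference between the receptors was tested on Ddr2 minus the mean of the Ddr1 features in each array. This quantity was 1.11 higher with AA2G, in an exact two-sided permutation test p = 0.1, the smallest p that 3 against 3 arrays allow. Set against the mean of all collagen features, Ddr2 was 1.12 higher with AA2G, also at the smallest exact permutation p of 0.1. Ddr2 was already the called member with its groups far apart, so the outcome of both tests was largely set in advance. Neither test adds support to its call or to a difference from Ddr1 or from the collagens.

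**Figure D2:**
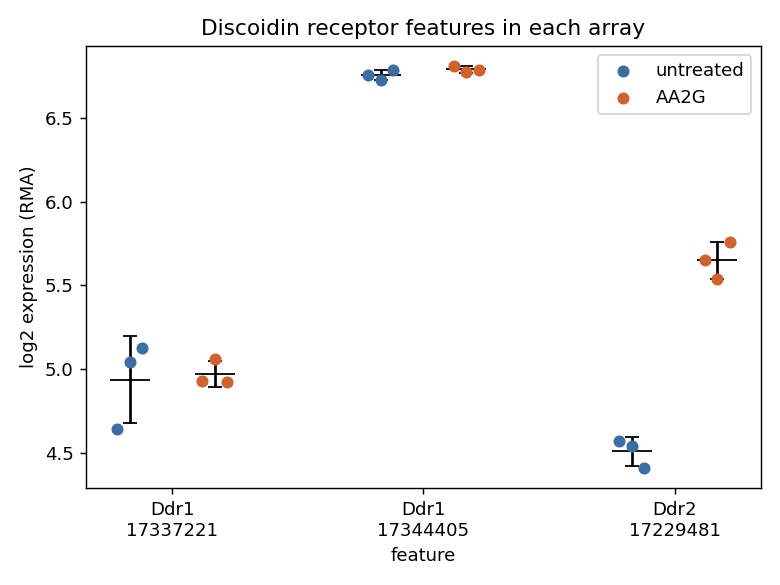
log2 expression (RMA, vertical axis) of the 3 discoidin receptor features, named by gene and feature number, in each array; points are arrays, horizontal marks are group means and bars are SD over 3 arrays. Ddr2 stands at 4.51 in untreated cells and 5.65 with AA2G, and both Ddr1 features overlap between groups.

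The stretches of 250 bases before a RefSeq transcription start of each receptor (build GRCm38.p6) are shown because Ddr2 was the only called member and Ddr1 is its nearest relative. Capitals mark CpG dinucleotides (CG, which reads alike on both strands), where mouse DNA can be methylated.
Ddr2, chr1:170088945-170089194, minus strand: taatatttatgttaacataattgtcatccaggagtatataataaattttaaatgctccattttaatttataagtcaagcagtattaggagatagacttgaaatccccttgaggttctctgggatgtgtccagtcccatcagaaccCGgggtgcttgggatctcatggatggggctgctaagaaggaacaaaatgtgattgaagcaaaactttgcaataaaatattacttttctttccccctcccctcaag
Ddr1, chr17:35704600-35704849, minus strand: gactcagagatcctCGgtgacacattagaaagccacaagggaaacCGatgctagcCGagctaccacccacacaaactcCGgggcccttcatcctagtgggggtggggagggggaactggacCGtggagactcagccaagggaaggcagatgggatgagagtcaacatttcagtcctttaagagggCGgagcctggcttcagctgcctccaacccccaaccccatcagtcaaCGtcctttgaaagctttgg
The Ddr2 stretch holds 1 CpG, and 18.8% of the 32851 stretches of this length in the table hold as many or fewer. For Ddr1 the table has 4 starts, and the one farthest upstream, printed here, holds 7, which 57.0% of all stretches do not exceed. Its other starts hold 34, 9 and 5, and the one with 34, which 97.0% of all stretches do not exceed, has the most of any start among these genes. The Ddr2 start used by the table lies inside the gene's RefSeq record, which reaches 21.9 kb further upstream, so the promoter in use in these cells may lie elsewhere. Of the 46 genes, 37 had a stretch, with 43 starts and from 0 to 34 CpG, a median of 9 against 6 over the whole table; 92.1% of all stretches hold at least 1. Methylation was not measured here, and a count of CpG says nothing of it.

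The 6 nearest measured genes around Ddr2 in the RefSeq gene order, looked at after its value was seen, did not pass. Toward lower positions these were 3110045C21Rik, whose record overlaps the end of Ddr2 by 90 bases, at -0.03 (log2), Hsd17b7, an enzyme of sterol synthesis, at -0.06, and Ccdc190 at 0.02 and -0.08 for its features. Toward higher positions they were Uap1, which makes a sugar nucleotide for glycosylation, at 0.01, Uhmk1 at 0.08 and -0.04, and Sh2d1b2 at 0.09. Their limma adjusted p lay between 0.779 and 0.983.

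The fibrillar class has 13 features for 11 genes, none of which passed in limma. Its median was 0.05, with 9 values above 0 and 4 below, and the groups did not overlap at 2 features, 15.4% as against 15.7% of all features. Col1a1 (12842), the main chain of type I collagen in bone and skin, read 5.72, 5.79 and 5.88 untreated and 5.97, 6.03 and 5.92 with AA2G. All AA2G arrays lay above all untreated ones, the nearest by a narrow margin. The difference was 0.17 ± 0.08 (SE; limma adjusted p = 0.516), the largest positive value among the collagens. Col1a2 (12843), its partner chain in the type I trimer, read 5.23, 5.11 and 5.17 untreated and 5.06, 5.18 and 5.23 treated at one feature, and 3.26, 3.10 and 3.39 against 3.18, 3.24 and 3.41 at the other. Both overlapped fully, with differences of -0.01 ± 0.08 and 0.03 ± 0.10.

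Col3a1 (12825), the chain of type III fibrils in vessels and skin, read 5.26, 5.52 and 5.35 in untreated cells and 5.20, 5.38 and 5.36 with AA2G, overlapping throughout (-0.06 ± 0.09, SE). Col24a1 (71355), a minor fibrillar chain, read 5.21, 5.28 and 5.24 untreated against 5.08, 5.02 and 5.04. Its AA2G arrays were all lower. The difference of -0.20 ± 0.07 (SE) had the smallest unadjusted p among the collagens, 0.0185 in limma, and the limma adjusted p was 0.354. Of the type V chains, which start and thin fibrils, Col5a1 (12831) read 6.46, 6.41 and 6.66 against 6.58, 6.57 and 6.54 at one feature and 5.03, 4.94 and 4.72 against 4.96, 5.13 and 4.79 at the other. Neither feature separated the groups.

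Col11a2 (12815), a cartilage fibril chain, read 5.28, 5.22 and 5.29 untreated and 5.34, 5.27 and 5.45 treated, a difference of 0.09 ± 0.08 (SE) with overlapping groups. The other fibrillar chains had differences between -0.03 and 0.07. These were Col11a1 at -0.03, Col27a1 at 0.02, the cartilage type II chain Col2a1 at 0.05, and Col5a2 and Col5a3, further type V chains, at 0.06 and 0.07.

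The basement membrane class, the 6 type IV chains, had a median of 0.03 and 0 calls, with 0 at an unadjusted p under 0.05 in limma. The groups overlapped at every one of its features. Col4a1 (12826) and Col4a2 (12827) form the common type IV trimer, the form laid down by the early embryo, and their genes lie side by side. Col4a1 read 5.88, 6.07 and 6.11 untreated against 6.05, 6.01 and 6.10 with AA2G (0.03 ± 0.08, SE). Col4a2 read 5.47, 5.80 and 5.50 against 5.54, 5.55 and 5.63 (-0.02 ± 0.10), so neither chain of the pair separated the groups.

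Col4a3 (12828), Col4a4 (12829) and Col4a5 (12830) make the trimer of the kidney filter. Col4a3 read 4.98, 4.98 and 4.77 untreated and 4.83, 4.91 and 4.70 treated. Col4a4 read 4.95, 4.94 and 4.89 against 5.12, 5.01 and 4.93. Col4a5 read 5.14, 4.95 and 5.04 against 5.16, 5.29 and 4.91. The groups overlapped at all 3, and the differences were -0.10 ± 0.09, 0.10 ± 0.08 and 0.08 ± 0.11 (SE; limma adjusted p = 0.816, 0.769 and 0.882). The remaining chain, Col4a6, was at 0.04.

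Fibril-associated collagens, 9 genes with 1 feature each, had a median of 0.02 and 0 calls in limma, with 0 at an unadjusted p under 0.05. Col9a2 (12840), of the type IX collagen that coats cartilage fibrils, read 7.23, 7.37 and 7.40 untreated and 7.53, 7.32 and 7.41 with AA2G. The groups overlapped and differed by 0.09 ± 0.09. Col14a1 (12818), which sits on type I fibrils, read 4.497, 4.58 and 4.56 against 4.62, 4.65 and 4.72. Here the AA2G arrays were all higher, by a small amount (0.12 ± 0.07, SE; limma adjusted p = 0.659).

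Col20a1 (73368) read 5.05, 5.30 and 5.13 in untreated cells and 5.44, 5.28 and 5.28 with AA2G, at 0.17 ± 0.09 (SE). Col22a1 (69700), a chain of the junction between muscle and tendon, read 5.08, 5.33 and 5.28 against 5.48, 5.25 and 5.41, at 0.15 ± 0.10. At both, the groups overlapped. The other members were Col12a1 at 0.01, Col16a1 at 0.02, Col19a1 at -0.01, Col9a1 at -0.06 and Col9a3 at -0.08, the last 2 being the partner chains of Col9a2.

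Transmembrane collagens, 4 genes, had a median of 0.00 with 2 values above 0 and 2 below, and 0 calls (0 also at an unadjusted p under 0.05 in limma). Col13a1 (12817), found at cell adhesions and the neuromuscular junction, read 6.44, 6.51 and 6.48 untreated and 6.45, 6.42 and 6.44 treated. Col23a1 (237759) read 6.08, 6.35 and 6.40 against 6.31, 6.28 and 6.36. Col25a1 (77018), of neurons, read 5.25, 5.11 and 5.31 against 5.37, 5.29 and 5.40. Overlap was seen in all 3, with differences of -0.04 ± 0.07, 0.04 ± 0.10 and 0.13 ± 0.08 (SE). Col17a1, the hemidesmosome collagen of skin, was at -0.03.

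The multiplexins are basement membrane zone collagens with an interrupted helix. Col18a1 (12822), whose end fragment is endostatin, read 7.45, 7.74 and 7.63 in untreated cells and 6.96, 7.57 and 7.32 with AA2G. Its AA2G arrays spread widely, and 1 of them lay inside the untreated range. The difference of -0.32 ± 0.15 (SE) was the largest in size among the collagens but did not pass (95% interval -0.67 to 0.03, limma adjusted p = 0.552). It was -0.16 without AA2G replicate 1 and -0.47 without AA2G replicate 2. Arrays with the same replicate number differed by -0.49, -0.17 and -0.31. With the replicate number as a block, limma gave an unadjusted p of 0.0103 and an adjusted p of 0.234. Col15a1 (12819), its relative, read 4.72, 4.95 and 4.87 against 4.71, 4.93 and 5.06, with full overlap and a difference of 0.05 ± 0.11.

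The type VI chains, which build beaded filaments around cells, have 7 features for 6 genes, with a median of -0.01 and 0 calls in limma (0 also at an unadjusted p under 0.05). Col6a1 (12833) read 5.72, 6.03 and 6.08 untreated against 5.92, 6.07 and 5.91 at one feature, and 3.72, 4.03 and 4.16 against 3.86, 4.22 and 3.66 at the other. Neither separated the groups, at 0.02 ± 0.11 and -0.06 ± 0.16 (SE). Col6a6 (245026) read 5.32, 5.54 and 5.51 against 5.55, 5.61 and 5.66, which did not overlap (0.15 ± 0.08; limma adjusted p = 0.650). Col6a4 (68553) read 4.78, 4.81 and 4.61 against 4.96, 4.90 and 4.79, at 0.15 ± 0.09. Col6a5 (665033) read 5.03, 5.18 and 5.10 against 5.10, 5.19 and 4.87, at -0.05 ± 0.10, and like Col6a4 it overlapped. Col6a2 and Col6a3, the partners of Col6a1 in the classical trimer, were at -0.01 and -0.02.

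Network-forming chains had 0 calls in 3 genes (0 also at an unadjusted p under 0.05 in limma). Col8a1 (12837), of vessel walls and the eye, read 4.99, 5.29 and 5.19 untreated and 5.16, 5.28 and 5.11 with AA2G. Its partner Col8a2 (329941) read 4.88, 5.02 and 5.22 against 5.01, 5.02 and 5.19. Col10a1 (12813), the marker of hypertrophic cartilage, read 3.93, 4.16 and 4.14 against 3.99, 3.92 and 4.11. All 3 overlapped, at 0.03 ± 0.10, 0.03 ± 0.10 and -0.07 ± 0.09 (SE).

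Of the remaining types, Col7a1 (12836), the anchoring fibril of skin, read 5.91, 5.89 and 5.999 untreated and 5.81, 5.80 and 5.88 treated. Its AA2G arrays were all slightly lower, at -0.10 ± 0.07 (SE; limma adjusted p = 0.717). Col26a1 (140709) read 6.14, 6.08 and 6.10 against 6.30, 6.22 and 6.12, at 0.11 ± 0.08. Col28a1 (213945) read 4.32, 4.30 and 4.12 against 3.9997, 4.43 and 4.38, at 0.03 ± 0.12, and both of these overlapped.

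**Figure D3:**
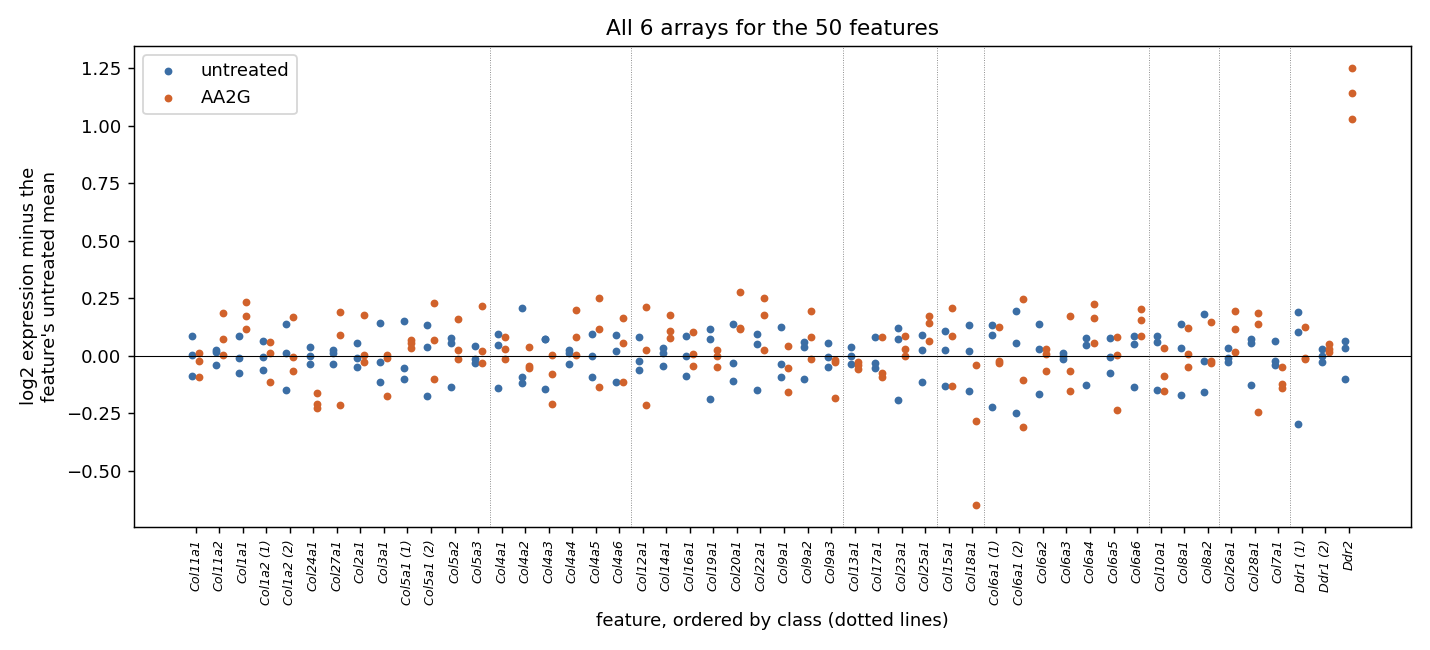
All 6 arrays for each of the 50 features, as log2 expression minus the mean of the feature's 3 untreated arrays (vertical axis), ordered by class along the horizontal axis with dotted lines between classes. The Ddr2 arrays with AA2G stand about 1 above 0, and the other features scatter around 0.

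Across the whole set, the groups did not overlap at 6 of the 50 features (12.0%, against 15.7% of all features, 7.21% higher and 8.48% lower), with Ddr2, Col1a1, Col14a1 and Col6a6 higher and Col24a1 and Col7a1 lower. The collagen features were measured about as tightly as the rest of the array, with a median SE of 0.09 for both. Their 95% intervals, taken one by one, lay between -0.67 and 0.38, so all 47 lay within -1 and 1 (a change of 2-fold) and 46 within -0.5 and 0.5. A missed threshold does not show that a chain is at the same level, and the values of dim features understate a change. Feature means ran from 3.26 to 7.45, with a median of 5.25 against 5.51 for all features. Levels of different probe sets are not compared here, and the table has no detection calls that would say which chains these cells express.

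The genes that make, bind and break down collagen were taken as 6 lists of 70 measured genes in all, with 73 features. None passed in limma. An unadjusted p under 0.05 was reached by 3 with a higher and 6 with a lower value, or 12.3% against 9.71% of all features. The groups did not overlap at 8 features with a higher and 8 with a lower value, or 21.9% against 15.7% of all features. By list this share ran from 12.5% for other receptors to 33.3% for processing and cross-linking. The medians of the lists lay between -0.08 and 0.03.

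The hydroxylation list holds 14 measured genes, with a median of -0.07 and 10 values below 0. P4ha1 and P4ha2, the catalytic subunits of the prolyl hydroxylases that need ascorbate, differed by -0.12 ± 0.31 and -0.08 ± 0.14 (SE). P4ha1 read 8.74, 7.65 and 8.27 untreated and 8.61, 7.60 and 8.10 with AA2G, an overlap over nearly the whole range. The SD within a group was 0.54 and 0.51 for P4ha1 and 0.22 and 0.20 for P4ha2, larger than the difference between groups. Arrays with the same replicate number differed by less, at -0.12, -0.05 and -0.18 for P4ha1 and -0.11, -0.07 and -0.07 for P4ha2. Every such difference lay below 0 at both, as it did at 4713 of the 23521 features. The group difference was not stable in sign. With single arrays left out it ran from -0.40 to 0.14 for P4ha1 and from -0.19 to 0.034 for P4ha2. P4hb, the subunit that is also protein disulfide isomerase, was at 0.08 ± 0.07 (SE) on the log2 scale. Further members were P3h4 at -0.19 ± 0.07, which acts with lysyl hydroxylase, Ppib, a prolyl isomerase of collagen folding, at 0.15 ± 0.07, and the lysyl hydroxylase Plod1 at -0.17 ± 0.11 (limma adjusted p = 0.443, 0.565 and 0.717).

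In the folding and secretion list of 12 genes the median was 0.03. Serpinh1, the collagen chaperone Hsp47, was at -0.16 ± 0.08 (SE), Creb3l1, a transcription factor of collagen secretion, at -0.21 ± 0.10, and Sec24d, a coat subunit of the vesicles that export procollagen, at 0.22 ± 0.10. The processing and cross-linking list of 11 genes had the same median. In it Pcolce, which enhances cleavage of the procollagen end, was at 0.19 ± 0.07, and the lysyl oxidase relatives Loxl3 and Loxl4 were at -0.29 ± 0.12 and 0.13 ± 0.08 (limma adjusted p from 0.388 for Pcolce to 0.706 for Loxl4).

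Among 12 regulators of fibrils (14 features, median 0.01), Sparc, a collagen-binding matrix protein, came nearest to the threshold. Its arrays read 8.19, 8.21 and 8.10 untreated and 8.48, 8.55 and 8.51 with AA2G, at 0.34 ± 0.07 (SE; limma adjusted p = 0.0925). It passed with a trended robust prior (0.0345), with array weights (0.0217) and with brighter features only (0.0453). Decorin, Dcn, was at -0.27 ± 0.10, and Fmod at 0.21 ± 0.09 and, at its second feature, 0.05 ± 0.08.

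Other collagen receptors, 8 genes with a median of -0.02, held Mrc2, which takes up collagen fragments, at -0.23 ± 0.09 (SE), Adgrg1, a receptor of type III collagen, at -0.19 ± 0.15 and Itgb1, the integrin β1 chain, at -0.10 ± 0.09. The limma adjusted p was 0.438, 0.769 and 0.808, and none of the 8 passed. Ddr2 was the one collagen receptor of the 10 measured that did. Of the 8 features, 3 had a mean above the 40th percentile of feature means, and dim features understate a change. The receptor gene Itga10 had no feature of 1 symbol. The degradation list of 13 genes had a median of -0.08. Mmp14, the membrane-bound collagenase, was at -0.41 ± 0.13 (adjusted p = 0.320), Mmp8, a neutrophil collagenase, at -0.24 ± 0.08 (0.307) and Mmp1b at -0.18 ± 0.11 (0.691).

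**Figure D4:**
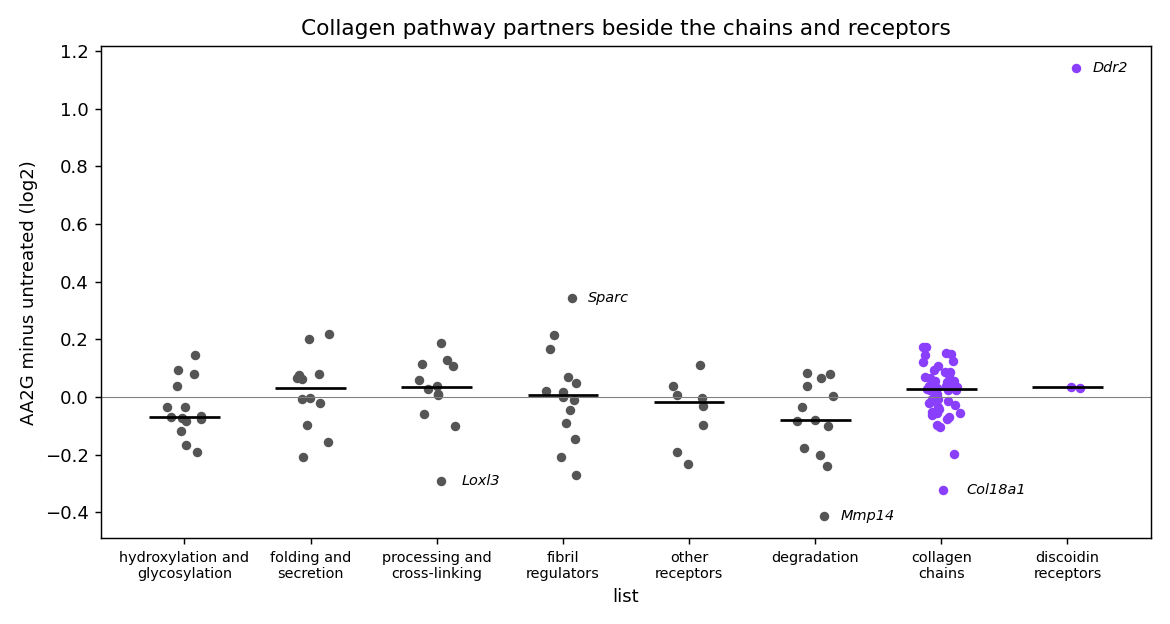
Differences between AA2G and untreated cells (log2, vertical axis) for the features of 6 lists of collagen pathway genes, for the collagen chains and for the discoidin receptors; each point is a feature, horizontal lines are medians and points are shifted sideways for display. Ddr2 stands at 1.14, and all other points lie between -0.41 and 0.34.

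Marker lists of cell types were read beside these values. The mean signal of 13 embryonic stem cell genes was 9.71 to 9.75 on untreated and 9.63 to 9.67 on AA2G arrays, and 10 of the 13 differences lay below 0. None was called in limma, while 3 (23.1%, against 9.71% of all features) were lower at an unadjusted p under 0.05. These were the pluripotency factors Klf4 at -0.31 ± 0.07 (SE), Nanog at -0.17 ± 0.07 and Pou5f1 at -0.16 ± 0.07 (limma adjusted p = 0.127, 0.445 and 0.455). Each had all AA2G arrays below all untreated ones. The groups did not overlap at 3 of the 13 features (23.1%), against 15.7% of all features in either direction and 8.48% lower.

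Ddr2 is known from fibroblasts and cartilage. The 16 fibroblast markers had a mean of 5.27 to 5.31 untreated and 5.21 to 5.23 with AA2G. Of their differences 8 lay above 0 and 8 below, with a median of -0.02. In limma 0 were called higher and 1 lower, against 0.608% and 0.153% of all features. The one called was Fstl1, a secreted glycoprotein, at -0.69 ± 0.08 (SE, limma adjusted p = 0.00937). In limma 2 of them (12.5%, against 9.71% of all features) had an unadjusted p under 0.05, Fstl1 and Dcn, both lower. The 9 cartilage and bone markers were at 4.95 to 5.03 and 4.99 to 5.04 with 0 calls. In limma 2 of them (22.2%, against 9.71% of all features) had an unadjusted p under 0.05, Acan, the cartilage proteoglycan, at 0.49 ± 0.09 (adjusted p = 0.0786) and Sp7, a transcription factor of bone, at -0.38 ± 0.11 (0.242). The groups did not overlap at 33.3% of the 9 features, against 15.7% of all features, with Acan and Comp (0.07) higher and Sp7 lower.

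The primitive and parietal endoderm list, of cells that lay down basement membrane, moved in both directions without a call in limma. Of its 16 features 5 (31.2%) had an unadjusted p under 0.05, against 9.71% of all features, and the groups did not overlap at 7 (43.8%, against 15.7%), with 2 higher and 5 lower. Higher were Sparc, at 0.34, and the laminin chain Lama1, at 0.50 ± 0.09 (SE; limma adjusted p = 0.0706), while the laminin chain Lamb1 was at -0.48 ± 0.14 (0.283), Cubn at -0.26 ± 0.10 and Sox7 at -0.20 ± 0.09. In the trophoblast list 2 of 11 features (18.2%) reached that unadjusted p, the keratins Krt8 at -0.35 ± 0.07 (limma adjusted p = 0.0894) and Krt18 at -0.43 ± 0.10 (0.126), whose second feature was at 0.12. In limma 1 of 8 neuroectoderm features (12.5%) reached it, Sox1 at -0.19 ± 0.08, and 0 of 9 mesoderm features did. Neither list had a call. The array has no detection calls, so no marker can be put at 0 and the presence of a cell type was not read from these signals. The part of other cell types in the rise of Ddr2 was not tested.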

How the data were processed

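Total RNA of R1 cells was hybridised to Mouse Gene 2.0 ST arrays, 3 untreated and 3 with AA2G. The deposited values are log2 expression. Per the submitters' processing notes the authors used RMA and Affymetrix Expression Console; versions, annotation and genome build were not given in the sources used here. RMA corrects background, applies quantile normalization between arrays and summarises probes, so a change in total RNA per cell is not seen. Array medians were 5.06 to 5.10, and all 6 sample columns were used. Precision is limited by the number of arrays, and the labels give no batch.

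Features with 1 symbol were fitted in limma 3.58.1 under R 4.3.3 (lmFit, eBayes, two-sided, no covariate), with Benjamini-Hochberg adjustment over 23521 features. The procedure was tested on simulated data. Symbols of all 50 members matched RefSeq through the Entrez identifier. Members and lists were chosen with earlier results of these data known. Arrays are printed for members highest in mean signal, up to 3 per class with the smallest unadjusted p, both receptors and 6 chains fixed by name; partner lists give up to 3 members likewise, plus P4ha1, P4ha2 and P4hb. Sequences are from RefSeq (GRCm38.p6). Listed partner and marker genes without a feature of 1 symbol, such as Plod3, Fkbp10, Adamts2 and Loxl2, were not analysed here. Alternatives were other normalizations, priors, weights, filters, a replicate block and leaving out each array.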

Additional observations from a re-analysis of the deposited data

How the results depend on the processing

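Under 13 alternatives Ddr2 was the 1 member called higher. With brighter features only the count was the same, but Ddr2 passed that filter through its AA2G arrays alone, so that fit is no support. No member was called lower and no collagen feature passed under any of the 14 alternatives, the smallest adjusted p being 0.131 for Col24a1 with array weights. The features called in the whole table were 277 with a trended robust prior and 496 with array weights, against 179, and 64 to 131 with an array left out. Collagen pathway partners called were 0, and 1 (Sparc) with the trended robust prior, with array weights and with brighter features only. The replicate numbers were not treated as pairs: deviations of same-numbered arrays correlated at 0.23, 0.22 and 0.02, though all 6 arrays correlated best with their own number. With the replicate number as a block 155 features were called, among them Ddr2 (adjusted p = 0.0195) as the 1 member.

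Signs of small differences were not stable, and 30 of the 50 features changed sign in some fit, with 0.26 the largest size among them. With array weights 14 differences turned. Among the features printed array by array they were -0.035 for Col5a1, -0.073 for Col6a1, -0.020 for Col8a1, -0.0022 for Col4a5, -0.011 for Col23a1, -0.022 for Col8a2, 0.017 for Col1a2, 0.049 for Col4a2 and -0.088 for Ddr1, each at its feature with that sign change. The other 5 were -0.044 for Col12a1, -0.049 for Col16a1, 0.030 for Col17a1, 0.10 for Col19a1 and 0.028 for Col9a1. With single arrays left out, 29 member features crossed 0. For the 16 printed array by array, and for P4ha1 and P4ha2, the ranges were -0.022 to 0.15 for Col15a1, -0.052 to 0.036 and -0.042 to 0.10 for Col1a2, -0.059 to 0.099 for Col23a1, -0.054 to 0.16 for Col28a1, -0.12 to 0.011 for Col3a1, -0.037 to 0.079 for Col4a1, -0.078 to 0.084 for Col4a2, -0.0091 to 0.18 for Col4a5, -0.022 to 0.15 for Col5a1, -0.089 to 0.090 and -0.21 to 0.069 for Col6a1, -0.12 to 0.042 for Col6a5, -0.056 to 0.096 for Col8a1, -0.048 to 0.12 for Col8a2, -0.11 to 0.13 for Ddr1, -0.40 to 0.14 for P4ha1 and -0.19 to 0.034 for P4ha2. The other 13 (Col11a1, Col12a1, Col16a1, Col17a1, Col19a1, Col27a1, Col2a1, Col4a6, Col5a2, Col5a3, Col6a2, Col6a3 and Col9a1) stayed between -0.11 for Col6a3 and 0.14 for Col27a1. The cause was not tested. With brighter features only, 34 of the 50 member features were left to test.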

Other observations

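A further feature carries Col6a1 together with Rps21 and predicted genes and was not counted as a member. It read 9.57, 9.34 and 9.52 on the untreated arrays and 9.38, 9.50 and 9.58 on the AA2G arrays (log2), with overlapping groups, and its signal cannot be assigned to one of these genes.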
